A study of Mus musculus with 6 samples.

Results

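Cytochrome P450 (CYP) genes were examined in gonadal white adipose tissue (gWAT), the fat pad beside the reproductive organs. Members were every gene whose mouse symbol consists of Cyp, a family number, a subfamily letter and a further number, which gave 84 of the 19790 genes in the table. The rule used names only and no measured value. RNA from wild-type C57BL/6 mice was sequenced after 8 weeks on a normal chow diet (NCD, n = 3) or a high-fat diet (HFD, n = 3), and no mouse carried a transgene or received a drug. The labels place the start of feeding at 6 weeks of age, the study's methods state another age and male mice. The question was how diet changes gene expression in this depot, so HFD was compared with NCD.

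Both diets held a library that stood apart. NCD replicate 1 devoted 58.6% of its counts to 11 secretory genes of the seminal vesicle, a gland that lies next to this fat pad, against 11.2% and 2.30% in NCD replicates 2 and 3 and 2 to 8 counts per library on HFD. The same order held across the NCD mice for 6 epithelial and 5 smooth muscle genes. Their summed levels in NCD replicates 1, 2 and 3 were 1212, 139 and 36.5, and 5490, 626 and 174 CPM, read counts scaled to a common library size. In HFD replicates 1, 2 and 3 they were 33.7, 141 and 44.3, and 244, 162 and 159 CPM, so the diets overlapped in both lists. HFD replicate 1 had a summed level of 41.3 CPM for 5 hepatocyte genes, against 1.37 to 9.04 CPM in the other 5 mice, with albumin (Alb) at 28.0 CPM. It was also highest for 3 testis germ cell genes, which summed to 2.06 CPM against at most 0.284 CPM elsewhere. The adipocyte list (7 genes, none at 0) summed to 3560, 14488 and 19672 CPM on NCD and 14150, 14142 and 10885 CPM on HFD. It was therefore lowest in NCD replicate 1, through which the diets overlapped. The macrophage list (8 genes, none at 0) summed to 352, 854 and 751 CPM on NCD and 3446, 1874 and 2293 CPM on HFD, without overlap. Libraries held 49575113 to 66360046 counts. CPM are scaled here by TMM, which corrects for a few genes that take up much of a library, and results are given with and without NCD replicate 1.

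P450 enzymes are heme proteins that insert an oxygen atom into their substrate. A cysteine of the protein binds the heme iron, and electrons arrive through P450 oxidoreductase in the endoplasmic reticulum or through ferredoxin in mitochondria. Liver is the richest source of the members that clear foreign compounds, while other members make or break down steroids, bile acids, oxysterols, vitamin D, retinoic acid and the oxygenated fatty acids that act as local mediators. In fat, this family is known for the handling of lipids, retinoids and lipophilic chemicals.

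The coding sequence around the heme-binding cysteine is what the family shares beyond its name. It was found, as the family pattern of a phenylalanine, a glycine, the cysteine and a last glycine at fixed spacing, in 75 of the 80 members that have a coding transcript in GENCODE vM21 (GRCm38). The cysteine codon was TGC in 45 of them and TGT in 30. The stretches of the members on which the results turn are shown 5′ to 3′, with the cysteine codon in capitals.

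Cyp2e1: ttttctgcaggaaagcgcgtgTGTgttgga
Cyp2f2: ttttcggctggacgtcgactgTGTctggga
Cyp2c23: ttctccctcgggaagcgatccTGTgttggc
Cyp4a10: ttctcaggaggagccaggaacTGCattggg
Cyp4a14: ttctcaggaggatcaaggaacTGCattggg
Cyp4b1: ttttctgcagggcccaggaatTGCattggg
Cyp4v3: ttttctgctggacctcgaaacTGTattggt
Cyp4f18: ttctcggctgggcccaggaacTGCatagga

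The neighbours Cyp4a10 and Cyp4a14 were identical at 28 of 30 bases of this stretch, Cyp4b1 and Cyp4a10 at 24, Cyp2e1 and Cyp2f2 at 21 and the distant pair Cyp4a10 and Cyp2e1 at 16. Such likeness can split or move reads between genes when they are counted. Of the 75-base windows of Cyp4a10 transcripts, 18.4% also occurred in another gene, most of them in Cyp4a32, which had no count in any library. The value was 23.9% for Cyp4b1-ps2, all of it shared with Cyp4b1, and 15.6% for Cyp4f16, mostly shared with Cyp4f37. It was 7.15% for Cyp4b1, and 18 of the 32 members tested had no shared window. Cyp4b1-ps2 and Cyp4f41-ps, both tested, are transcribed pseudogenes.

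Most of the family was silent or barely counted in gWAT. A count was present for 68 members, and 25 had counts in all 6 mice. The 16 members at 0 everywhere were Cyp2a4, Cyp2a22, Cyp2b23, Cyp2c38, Cyp2c40, Cyp2c55, Cyp2c69, Cyp2d11, Cyp2d12, Cyp2d13, Cyp2d37-ps, Cyp2d40, Cyp2g1, Cyp4a31, Cyp4a32 and Cyp4f40. A count of 0 allows up to 3 counts, or 0.0359 to 0.0913 CPM per library. By role, counts were found for 24 of 27 members of the fatty acid and eicosanoid group and 28 of 41 of the xenobiotic group. They were also found for all 6 sterol and bile acid enzymes, all 5 enzymes of vitamin D and retinoic acid, all 4 of steroid synthesis and Cyp20a1, an orphan enzyme with no established substrate.

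Expressed members were those with a mean of at least 1 FPKM on either diet, which is the TMM-scaled CPM divided by the exon length in kilobases, a level that can be compared between genes. There were 20 of them. Cyp2e1, which oxidises ethanol, acetone and other small molecules, led on NCD with 339, 687 and 2264 FPKM. The next highest NCD means were 25.0 ± 16.1 FPKM for Cyp4b1, 23.7 ± 9.51 for Cyp2f2, 20.1 ± 0.700 for Cyp20a1 and 18.1 ± 0.940 for Cyp27a1 (SD, n = 3). Every NCD value of Cyp2e1 lay above every NCD value of Cyp4b1, whose highest was 39.5 FPKM, whereas the means of Cyp4b1, Cyp2f2, Cyp20a1 and Cyp27a1 differed by less than the larger SDs.

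On HFD, Cyp4b1 led with 88.6, 80.0 and 79.0 FPKM. Cyp2e1 followed with 23.6, 91.2 and 21.6 FPKM, so HFD replicate 2 alone exceeded Cyp4b1. Its place rested on that mouse, since Cyp4v3 was higher in HFD replicates 1 and 3, and the medians were 27.0 FPKM for Cyp4v3 and 23.6 FPKM for Cyp2e1. Cyp4v3 had a mean of 36.7 ± 16.9 FPKM, Cyp27a1 16.6 ± 7.54, Cyp20a1 16.1 ± 0.594, Cyp4f18 14.4 ± 5.40 and Cyp1b1 13.5 ± 2.46 FPKM (SD, n = 3). The spread of Cyp4v3 and Cyp27a1 came with their highest value in HFD replicate 1. The other expressed members were Cyp2d22, Cyp4f13, Cyp4f16, Cyp2j6, Cyp2j9, Cyp2s1, Cyp4f17, Cyp39a1, Cyp7b1, Cyp26b1, Cyp3a57 and Cyp4f15, with means of 1.36 to 13.1 FPKM on the diet where each was higher. Cyp3a57 and Cyp4f15 reached 1 FPKM only through NCD replicate 1, at 5.82 and 5.43 FPKM, and had at most 0.497 FPKM in any other mouse. Without that library 19 members counted as expressed.

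**Figure D1:**
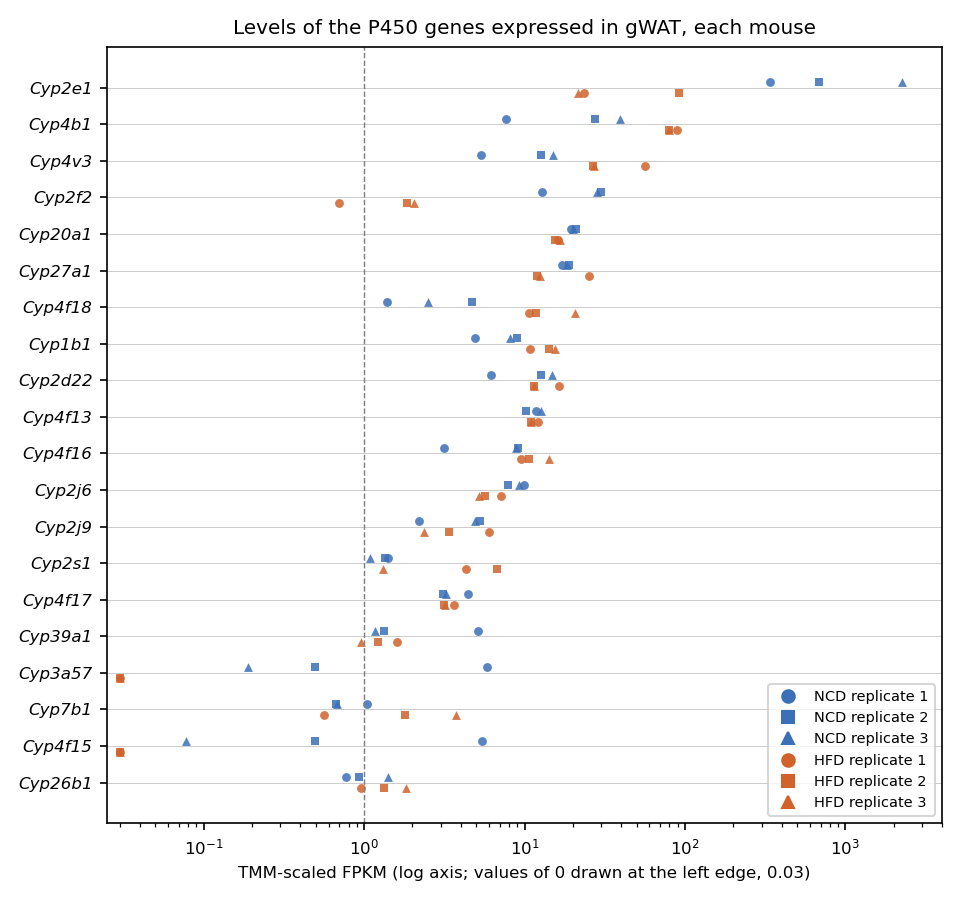
TMM-scaled FPKM (log axis) of the 20 expressed P450 genes in each mouse, ordered by the higher diet mean. Blue symbols are NCD mice, orange symbols HFD mice, symbol shapes are the replicate numbers, and the dashed line marks 1 FPKM. The blue Cyp2e1 points lie between 339 and 2264, and the Cyp4f15 and Cyp3a57 points of all HFD mice lie at 0.

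Cyp2e1 dominated the family's counts on NCD and not on HFD. It made up 66.2%, 74.1% and 89.8% of the members' counts in NCD replicates 1 to 3 and 5.65%, 22.9% and 6.38% in HFD replicates 1 to 3. Without it, the summed level of the other members was 319, 441 and 471 CPM on NCD and 724, 565 and 584 CPM on HFD. The diets did not overlap in either of these quantities, and neither was tested.

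Of the 84 members, 32 had enough counts to be tested with edgeR's quasi-likelihood test, Benjamini-Hochberg adjusted over 15241 genes. Cyp4a10, Cyp4a14 and Cyp2c23 were higher on HFD and Cyp2f2 was lower, at an adjusted p under 0.05. Among all genes tested, 5.58% were higher and 1.9% lower, so 3 and 1 of 32 members is near the background. Cyp4a10, Cyp4a14 and Cyp2c23 passed the filter on low counts only through the HFD libraries, and Cyp3a57 only through NCD libraries, so that these had to differ. An unadjusted p under 0.05 was reached by 14 of the 32, against 29.7% of all genes tested. The diets did not overlap for 11 members that were higher on HFD and 6 that were lower, against 20.5% and 18.7% of all genes tested. The median log2 fold change of the members was 0.04, and that of all genes −0.08.

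Without NCD replicate 1, 37 members could be tested and 9 passed. Cyp4a10, Cyp4a14, Cyp4b1, Cyp4f18 and Cyp4v3 were higher on HFD, and Cyp1a1, Cyp2e1, Cyp2f2 and Cyp3a57 were lower. In that fit 10.7% of all genes were higher and 10.1% lower. Cyp4a10, Cyp4a14 and Cyp2f2 passed in both fits. In both, Cyp4a10 and Cyp4a14 reached the test only through the HFD mice and so had to differ. Without NCD replicate 1, Cyp1a1 and Cyp3a57 reached it only through the NCD mice. A fit that left out HFD replicate 1 as well was added once values were known. In it 16 of 36 members passed, 10 higher and 6 lower, against 13.7% and 11.4% of all genes. Of these, Cyp4a10, Cyp4a14, Cyp2c23, Cyp4f37 and Cyp21a1 reached that fit only through the HFD mice. Cyp1a1 and Cyp3a57 reached it only through the NCD mice, so that all of these had to differ. Leaving out any one of the other 5 libraries left no member past the threshold in edgeR, with 11 to 15 members at an unadjusted p under 0.05 and 2 to 7 genes past it in the whole table.

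**Figure D2:**
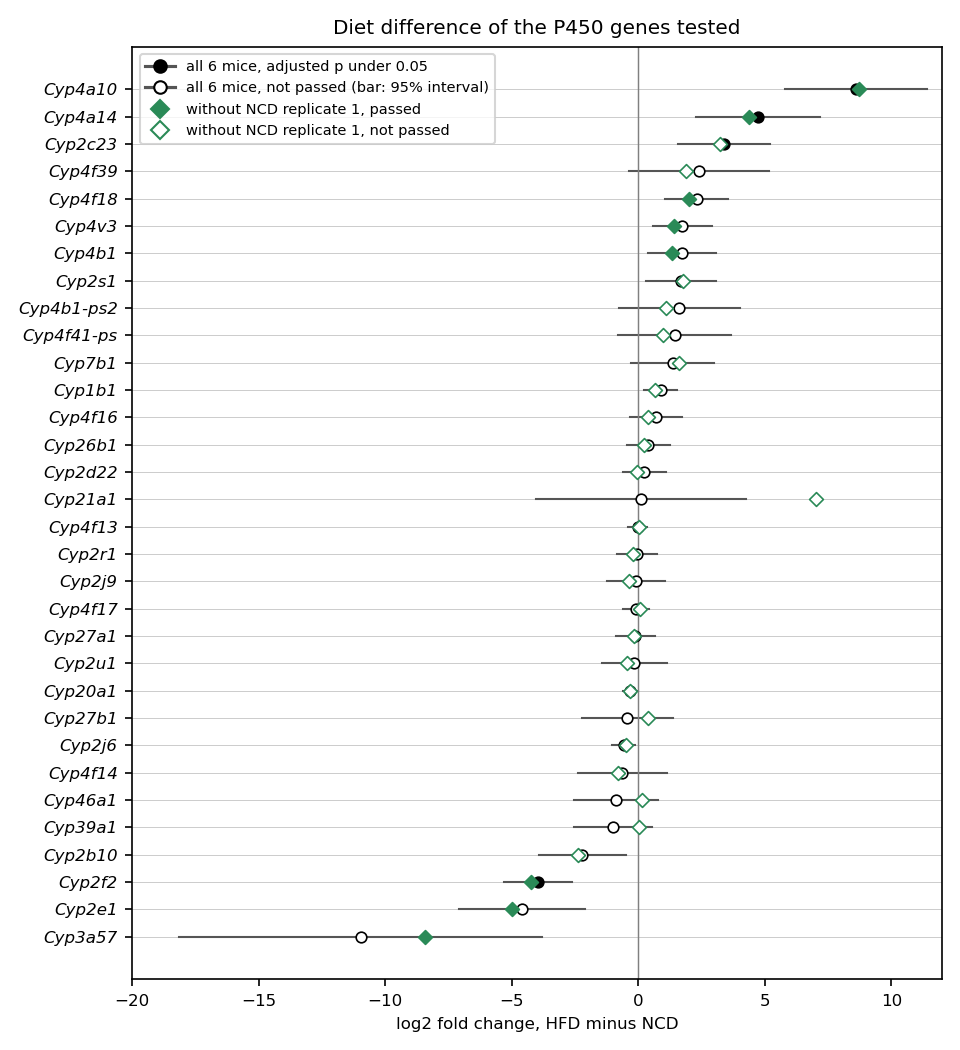
Log2 fold change (HFD minus NCD) of the 32 P450 genes tested, with 95% intervals for all 6 mice (circles, filled where the adjusted p was under 0.05) and the value without NCD replicate 1 (diamonds, filled where it passed). Cyp4a10, Cyp4a14 and Cyp2f2 are filled in both fits, and Cyp21a1 moved from 0.11 to 7.03 without NCD replicate 1.

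The xenobiotic group held Cyp2f2 and the other 3 members that were lower on HFD without NCD replicate 1. Of its 7 tested members 1 was higher and 1 lower with all mice, and of 9 tested without NCD replicate 1 none was higher and 4 were lower, against 5.58% and 1.9% of all genes with all mice and 10.7% and 10.1% without NCD replicate 1. Of the 4, Cyp3a57 and Cyp1a1 reached the test only through NCD libraries and so had to differ. Cyp2e1 had 624, 1264 and 4164 CPM on NCD and 43.4, 168 and 39.8 CPM on HFD. All HFD mice lay below all NCD mice, and NCD replicate 3 was the highest of the 6. The log2 fold change was −4.59 (SE 1.03) and its adjusted p of 0.0513 in edgeR missed the threshold. Without NCD replicate 1 it was −5.01 (SE 0.890, adjusted p = 0.0176), and without NCD replicate 3 it was −3.49 (adjusted p = 0.0813). DESeq2 called Cyp2e1 with all mice and without NCD replicate 1. The adipocyte list overlapped between the diets through NCD replicate 1 alone. Without that library it lay higher in both NCD mice than in any HFD mouse. The gap was narrow, with 14488 CPM in NCD replicate 2 against 14150 CPM in HFD replicate 1. In that fit 3 of its 7 genes (Plin1, Lipe and Retn) were lower on HFD. Adipoq, Cidec, Fabp4 and Lep did not pass, with log2 fold changes of −0.56, −0.74, −0.04 and 0.78. The part of adipocyte content in the Cyp2e1 difference was not tested. In bulk tissue, fewer cells of a type cannot be told apart from less RNA per cell.

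Cyp2f2, known for activating naphthalene in the airway, lies on the same chromosome as Cyp2e1 and had 23.8, 56.1 and 52.8 CPM on NCD and 1.3, 3.44 and 3.81 CPM on HFD. The lowest NCD value lay well above the highest HFD value. Cyp2f2 fell by 3.95 on the log2 scale (SE 0.551, adjusted p = 0.0223 in edgeR), a 15.5-fold difference, and it fell by 4.23 without NCD replicate 1 (adjusted p = 0.00667). It was also the member that passed when NCD replicate 3 was the lone NCD mouse.

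The promoters of these genes, from RefSeq (GRCm38.p6, 250 bases before and 50 after the start, plus strand), are shown because both genes were high on NCD and low on HFD. Letters in capitals mark matches to TATAAA, the TATA box, in Cyp2e1 at chr7:140763569-140763868 and to AGGTCA, a nuclear receptor half-site, in Cyp2f2 at chr7:27119705-27120004.

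Cyp2e1: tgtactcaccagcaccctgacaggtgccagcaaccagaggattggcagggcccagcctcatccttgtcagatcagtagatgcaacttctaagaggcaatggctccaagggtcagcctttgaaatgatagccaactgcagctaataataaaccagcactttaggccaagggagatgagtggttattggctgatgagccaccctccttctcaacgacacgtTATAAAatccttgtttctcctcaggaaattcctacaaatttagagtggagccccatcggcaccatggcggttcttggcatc
Cyp2f2: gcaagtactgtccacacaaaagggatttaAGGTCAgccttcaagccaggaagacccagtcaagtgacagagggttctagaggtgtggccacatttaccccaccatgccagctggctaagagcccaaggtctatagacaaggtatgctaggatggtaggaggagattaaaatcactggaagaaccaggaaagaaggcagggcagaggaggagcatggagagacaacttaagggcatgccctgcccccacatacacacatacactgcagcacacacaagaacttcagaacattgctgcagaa

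The TATA match began 31 bases before the start of Cyp2e1 and the half-site 221 bases before that of Cyp2f2. Searched on both strands, TATAAA was in 39.1% of the 69 promoters found for 62 members and in 13.6% of all 32851 promoters, and AGGTCA in 21.7% and 16.3%. GCGTG, the core bound by the aryl hydrocarbon receptor, was in 21.7% and 32.4%. A match is only a match of letters.

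Cyp1a1, the standard target gene of the aryl hydrocarbon receptor, was near the limit of counting. It had 0, 0.568 and 0.595 CPM on NCD and 0.0520, 0.0359 and 0 CPM on HFD, and the diets overlapped because NCD replicate 1 had no count. It was removed by the filter with all mice, and without NCD replicate 1 its log2 fold change was −4.21 (SE 0.900, adjusted p = 0.0282 in edgeR). It passed the filter there only through the NCD mice, and with no filter and all mice its adjusted p was 0.23. Cyp1b1, its relative that oxidises estradiol and polycyclic hydrocarbons, had 25.6, 46.8 and 42.4 CPM on NCD and 56.1, 74.3 and 80.8 CPM on HFD. Every HFD mouse lay above every NCD mouse, yet the adjusted p was 0.0971 (log2 fold change 0.88, SE 0.272), and it was 0.0554 without NCD replicate 1. It passed without replicate 1 of both diets (log2 fold change 0.80, adjusted p = 0.0139) and in DESeq2.

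Cyp2c23, an epoxygenase of arachidonic acid, had 0.0609, 0.117 and 0.0744 CPM on NCD and 1.77, 0.467 and 0.510 CPM on HFD. The highest value was in HFD replicate 1, the library with the hepatocyte transcripts, and the other HFD mice also lay above all NCD mice. The log2 fold change was 3.37 (SE 0.745, adjusted p = 0.0497 in edgeR). It was 2.49 without HFD replicate 1 (adjusted p = 0.0994) and 3.23 without NCD replicate 1 (adjusted p = 0.0541), and the adjusted p was 0.0648 with no filter on low counts, so the call depended on these choices. The part of hepatocyte RNA in it was not tested. Cyp2d22 differed little, with 30.9 ± 12.4 CPM on NCD and 36.2 ± 7.90 CPM on HFD (SD, n = 3, adjusted p = 0.689 in edgeR). The 95% interval of its log2 fold change ran from −0.62 to 1.07.

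In the fatty acid and eicosanoid group 2 of 16 tested members were higher with all mice and none lower, and the median log2 fold change was 1.53. Without NCD replicate 1, 5 of 17 were higher and none lower, with a median of 1.11. The diets did not overlap for 9 members that were higher and 1 that was lower. Among the 9 were the pseudogenes Cyp4b1-ps2 and Cyp4f41-ps. Over all genes tested the shares were 5.58% higher and 1.9% lower with all mice, 10.7% and 10.1% without NCD replicate 1, and 20.5% and 18.7% without overlap. Cyp4a10 and Cyp4a14, which passed in both fits, reached the test in both only through the HFD libraries and so had to differ. The Cyp4 subfamily hydroxylates fatty acids at the end of the chain.

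Cyp4a10, a fatty acid hydroxylase that PPARα switches on in liver, had no count in any NCD mouse and 0.520, 0.719 and 1.24 CPM on HFD, 168 counts in all. Against a floor of 3 counts per library it was at least 12.6-fold higher on HFD (adjusted p = 0.0289 in edgeR), and at least 15.6-fold without NCD replicate 1 (adjusted p = 0.0149). Cyp4a14, its neighbour on chromosome 4, had 0, 0 and 0.0372 CPM on NCD and 0.381, 0.276 and 0.574 CPM on HFD. The ratio of the summed counts, 81 to 2, was 29.1 with a 95% interval of 7.80 to 244 that covers counting error only, and the adjusted p in edgeR was 0.0465. With no filter on low counts it was 0.0807. Neither gene was highest in HFD replicate 1. Ppara had 8.80, 12.5 and 19.4 CPM on NCD and 5.36, 5.82 and 3.28 CPM on HFD. Its log2 fold change was −1.49 (adjusted p = 0.0658 in edgeR, and 0.0196 without NCD replicate 1). The part of PPARα activity or of hepatocyte RNA in the Cyp4a10 and Cyp4a14 differences was not tested.

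Cyp4b1, which hydroxylates short and medium fatty acids and activates several lung toxicants, had 14.5, 52.3 and 74.8 CPM on NCD and 168, 151 and 150 CPM on HFD. The HFD mice lay close together and all above NCD, while the NCD mice spread widely with replicate 1 the lowest. The log2 fold change was 1.73 (SE 0.556, adjusted p = 0.105 in edgeR) with all mice and 1.31 (SE 0.190, adjusted p = 0.0113) without NCD replicate 1. DESeq2 called Cyp4b1 with all mice and without NCD replicate 1. The adipocyte list was lowest in that same library.

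Cyp4v3, which hydroxylates medium-chain and polyunsaturated fatty acids, had 20.3, 48.3 and 56.96 CPM on NCD and 214, 102 and 103 CPM on HFD. All HFD mice were above all NCD mice, and HFD replicate 1 was well above the other HFD mice. The log2 fold change was 1.74 (SE 0.486, adjusted p = 0.0792 in edgeR) with all mice, 1.42 (adjusted p = 0.0494) without NCD replicate 1 and 0.96 (SE 0.132, adjusted p = 0.0119) without replicate 1 of either diet. DESeq2 called Cyp4v3 with all mice and without NCD replicate 1. The macrophage list was likewise highest in HFD replicate 1, and its part in the difference was not tested.

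Cyp4f18, which inactivates leukotriene B4 in myeloid cells, had 2.37, 8.04 and 4.26 CPM on NCD and 18.2, 20.1 and 35.0 CPM on HFD, without overlap. The log2 fold change was 2.32 (SE 0.513, adjusted p = 0.0501 in edgeR), just over the threshold. It was 2.01 (SE 0.424, adjusted p = 0.0275 in edgeR) without NCD replicate 1. DESeq2 called Cyp4f18 in both cases. Of the 8 macrophage genes 7 were higher in every HFD mouse than in every NCD mouse, 3 passed the test with all mice and 7 without NCD replicate 1. The macrophage list peaked in HFD replicate 1 and Cyp4f18 in HFD replicate 3, and the part of macrophage number in its level was not tested.

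**Figure D3:**
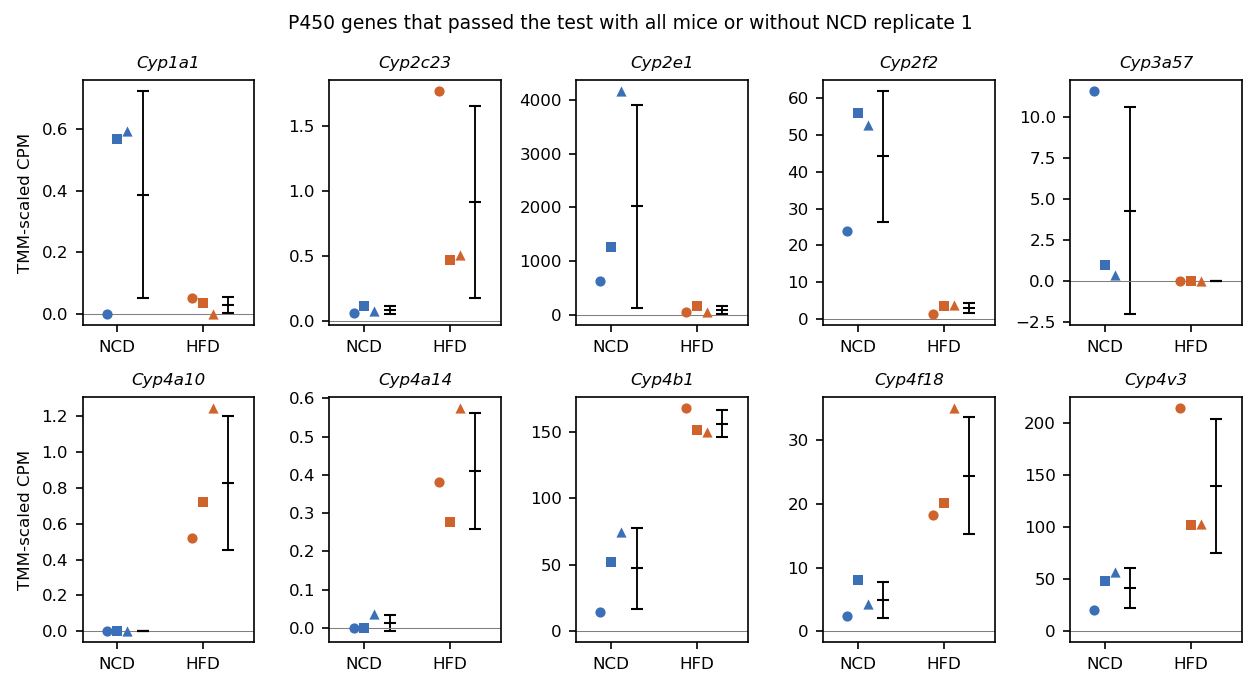
TMM-scaled CPM per mouse of the 10 P450 genes that passed the test with all mice or without NCD replicate 1. Blue symbols are NCD and orange symbols HFD mice, shapes are replicate numbers, and the bar beside them is the mean ± SD (n = 3). Cyp2f2 lies between 23.8 and 56.1 on NCD and 1.3 and 3.81 on HFD, and Cyp4b1 between 14.5 and 74.8 and 150 and 168.

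Of the enzymes related to Cyp4f18, Cyp4f13, Cyp4f16 and Cyp4f17 did not pass the test. Cyp4f13 had 20.2 ± 2.14 CPM on NCD and 19.9 ± 1.26 CPM on HFD (SD, n = 3), with a 95% interval of the log2 fold change from −0.39 to 0.35. Cyp4f17 had 10.9 ± 2.21 and 10.2 ± 0.835 CPM, with an interval from −0.62 to 0.41. Cyp4f16 did not overlap between the diets, at 15.8 ± 7.59 and 25.6 ± 5.38 CPM (adjusted p = 0.315 in edgeR), but shares sequence with Cyp4f37. Cyp4f37 had 2 counts on NCD and 116 on HFD, of which HFD replicate 1 held few, at 0.0693 CPM against 0.647 and 0.924 CPM in HFD replicates 2 and 3. The filter removed it with all mice, so that it was not tested in edgeR. Without NCD replicate 1 edgeR tested it and it did not pass (adjusted p = 0.0627). DESeq2 called it in both cases, and so did edgeR without replicate 1 of both diets (adjusted p = 0.0154). It reached both of these edgeR fits only through the HFD mice, with no count in NCD replicates 2 and 3, and so had to differ.

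Of the Cyp2 members in the fatty acid and eicosanoid group, Cyp2j6 had 35.8, 28.3 and 33.1 CPM on NCD and 25.8, 20.3 and 18.7 CPM on HFD. The diets did not overlap for Cyp2j6 (log2 fold change −0.58, SE 0.182, adjusted p = 0.0991 in edgeR). It passed without replicate 1 of both diets (log2 fold change −0.65, adjusted p = 0.0302) and in DESeq2 with all mice, while with libraries scaled to their totals only its log2 fold change was −0.05. Cyp2j9 had 8.44 ± 3.43 and 7.96 ± 3.82 CPM and Cyp2s1 4.06 ± 0.538 and 13.04 ± 8.64 CPM (SD, n = 3), and neither passed the test (adjusted p = 0.917 and 0.118). DESeq2 called Cyp2s1, and not Cyp2j9, with all mice and without NCD replicate 1. For Cyp2s1, HFD replicate 3 lay within the NCD range at 4.13 CPM.

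None of the 4 tested enzymes of the sterol and bile acid group passed edgeR with all mice or without NCD replicate 1, with 0 at an unadjusted p under 0.05 and 0 called by DESeq2 in both cases. Cyp27a1, the mitochondrial enzyme that hydroxylates the side chain of cholesterol, had 32.2, 35.6 and 34.7 CPM on NCD and 47.8, 22.7 and 23.5 CPM on HFD. Its adjusted p in edgeR was 0.811 with all mice and 0.775 without NCD replicate 1. A fit without replicate 1 of either diet was added once values were known. There its log2 fold change was −0.61 (SE 0.113, adjusted p = 0.0216 in edgeR). That fit leaves out HFD replicate 1, the HFD mouse above NCD. Cyp7b1, which hydroxylates oxysterols, had 2.25, 1.45 and 1.47 CPM on NCD and 1.21, 3.88 and 8.11 CPM on HFD, where HFD replicate 1 lay below all NCD mice. In the same later fit, which leaves out that HFD mouse, its log2 fold change was 2.03 (SE 0.432, adjusted p = 0.0297 in edgeR). It was 1.35 (adjusted p = 0.237) with all mice and 0.58 (adjusted p = 0.617) without HFD replicate 3, its highest mouse.

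Cyp26b1, which breaks down retinoic acid, had 5.54 ± 1.80 CPM on NCD and 7.29 ± 2.31 CPM on HFD (SD, n = 3, adjusted p = 0.483 in edgeR). None of the 3 tested members for vitamin D or retinoic acid passed edgeR, with 0 at an unadjusted p under 0.05 and 0 called by DESeq2. Steroid synthesis was at trace level. Cyp11a1, which starts it, reached 0.418 CPM at most. Cyp21a1, the 1 enzyme tested with all mice, had 0.761 CPM in NCD replicate 1, none in NCD replicates 2 and 3 and 0.0520 to 0.383 CPM on HFD. Cyp21a1 did not pass edgeR with all mice or without NCD replicate 1 (adjusted p = 0.973 and 0.0655). It passed edgeR without replicate 1 of both diets (adjusted p = 0.024). In both fits without NCD replicate 1 it reached the test only through HFD mice, so that it had to differ. DESeq2 called Cyp17a1, lower on HFD, with all mice, and Cyp21a1 without NCD replicate 1. Cyp20a1, the orphan, varied little within each diet, with 43.4, 46.4 and 44.3 CPM on NCD and 36.1, 34.3 and 36.9 CPM on HFD. The diets did not overlap, but the log2 fold change of −0.32 (SE 0.118) had an adjusted p of 0.137 in edgeR. DESeq2 called Cyp20a1 without NCD replicate 1 and not with all mice. Its log2 fold change turned to 0.18 with libraries scaled to their totals only, which put the median over all genes at 0.45.

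Cyp4f15 and Cyp3a57 had the same order as the seminal vesicle transcripts across the NCD mice, and other members were high in NCD replicate 1 alone. Cyp4f15 had 11.8, 1.07 and 0.167 CPM in NCD replicates 1, 2 and 3 and no count on HFD. Its level in NCD replicate 1 was 11.01-fold that in replicate 2 (95% interval 8.43 to 14.6) and that in replicate 2 was 6.39-fold that in replicate 3 (3.16 to 14.6), from counts. The 11 secretory genes together gave 10.7 and 5.12. Cyp3a57 had 11.6, 0.986 and 0.372 CPM, with steps of 11.7 (8.89 to 15.7) and 2.65 (1.57 to 4.65), and again no count on HFD. Cyp39a1, an oxysterol hydroxylase, had 15.7, 4.03 and 3.57 CPM on NCD and 4.90, 3.70 and 2.9 CPM on HFD, with steps of 3.90 (3.34 to 4.56) and 1.13 (0.929 to 1.37), so that NCD replicates 2 and 3 did not differ beyond counting error. Cyp46a1, the cholesterol hydroxylase of neurons, gave steps of 3.42 (2.53 to 4.68) and 1.54 (1.03 to 2.35). These intervals cover counting error only.

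Against the floor of 3 counts, Cyp3a57 was at least 95.2-fold lower on HFD with all mice and 15.01-fold without NCD replicate 1 (adjusted p = 0.0843 and 0.0259 in edgeR). Cyp4f15 was at least 95.9-fold lower and 13.7-fold lower in the same comparisons, where the filter removed it from the edgeR test. In edgeR with no filter and all mice it did not pass. DESeq2, run without that filter, called Cyp4f15 and Cyp3a57 with all mice and without NCD replicate 1. Cyp39a1 had a log2 fold change of −1.01 with all mice and 0.03 without NCD replicate 1. The part of seminal vesicle RNA in these differences was not tested.

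A further set of members was counted because of 1 HFD mouse. HFD replicate 1 had counts for 61 members, against 43 and 38 in HFD replicates 2 and 3 and 32, 38 and 42 on NCD. Of these, 15 members were counted in no other library, with 2 to 47 counts each and 199 in all. They included Cyp2c29 (47 counts), Cyp2d10 (24), Cyp2j5 (22), Cyp2c50 (20), Cyp2a5 (17), Cyp1a2 (16) and Cyp3a25 (13), all known as liver enzymes, and Cyp7a1 (2), which sets the pace of bile acid synthesis. Cyp3a11, the main drug-metabolising P450 of mouse liver, had 2.50 CPM there and at most 0.134 CPM elsewhere, and Cyp2c70 had 1.92 CPM against at most 0.132. The hepatocyte markers moved with them: Apoa1 had 4.92 CPM in this library and at most 0.319 CPM elsewhere, while Ttr and Fga were at 0 in every NCD mouse. The part of liver RNA in these counts was not tested.

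**Figure D4:**
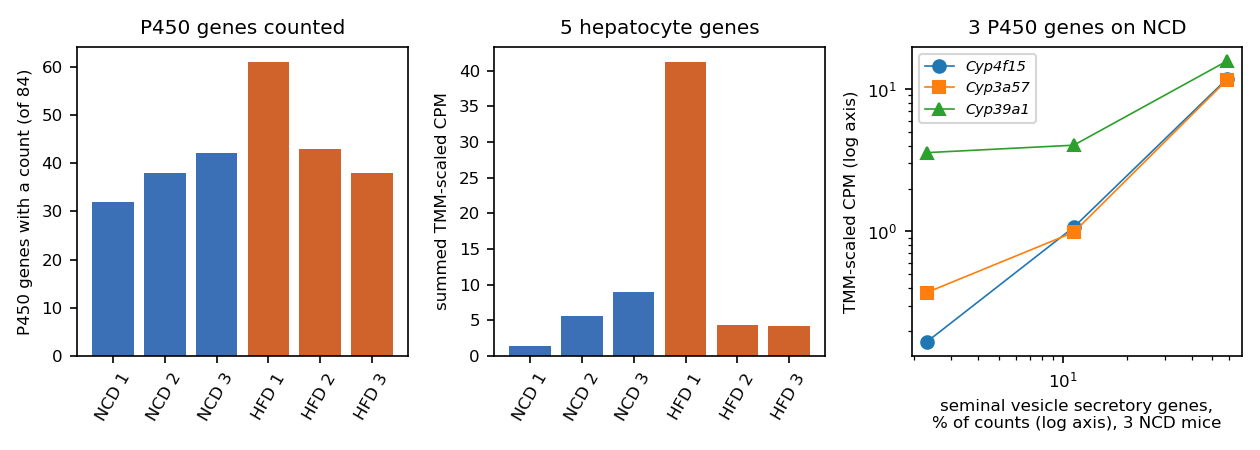
Number of P450 genes with at least 1 count in each library, summed TMM-scaled CPM of 5 hepatocyte genes in each library, and the level of Cyp4f15, Cyp3a57 and Cyp39a1 in the 3 NCD mice against the share of counts on 11 seminal vesicle secretory genes (both axes log). HFD replicate 1 has 61 P450 genes and 41.3 CPM of hepatocyte genes, the highest of the 6, and Cyp4f15 runs from 0.167 to 11.8 CPM.

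P450 genes whose symbols lie outside the name pattern gave 1 higher and 1 lower of 4 tested. Tbxas1, the thromboxane synthase of platelets and macrophages, had 4.02, 8.31 and 7.92 CPM on NCD and 64.8, 36.8 and 46.3 CPM on HFD (log2 fold change 2.87, SE 0.366, adjusted p = 0.0219 in edgeR). Like the macrophage list it was highest in HFD replicate 1. Cyp51, which demethylates lanosterol on the way to cholesterol, had 47.3, 133 and 104 CPM on NCD and 29.5, 27.3 and 24.5 CPM on HFD (log2 fold change −1.80, SE 0.378, adjusted p = 0.0451).

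The genes that serve the family as partners and cofactor enzymes were taken as lists. None of 9 electron donors and partners passed edgeR with all mice, where 4 had an unadjusted p under 0.05 and DESeq2 called 3, and 5 were lower without NCD replicate 1. Among these was Por, the oxidoreductase, at 153, 448 and 491 CPM on NCD and 212, 264 and 209 CPM on HFD, with an adjusted p of 0.349 with all mice and 0.0144 without NCD replicate 1. Of 13 genes of heme synthesis and breakdown, Hmox1, heme oxygenase, was higher (log2 fold change 2.34, adjusted p = 0.0254 in edgeR). Alad and Urod, enzymes of heme synthesis, were among the lower genes (log2 fold change −2.01 and −0.74, adjusted p = 0.0219 and 0.0360). Alad had 103, 68.0 and 78.7 CPM on NCD and 19.96, 26.7 and 15.5 CPM on HFD.

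Of 15 ligand-activated regulators tested, Vdr, the vitamin D receptor, was higher (log2 fold change 2.05, adjusted p = 0.0369 in edgeR). Ahr, the sensor of aromatic hydrocarbons, had 13.6 ± 1.04 CPM on NCD and 14.7 ± 0.134 CPM on HFD (SD, n = 3, adjusted p = 0.659). Nr1i2 and Nr1i3, the xenobiotic receptors of liver, had at most 0.0693 CPM in any mouse. Of 10 retinoid genes tested, Aldh1a2, which makes retinoic acid, and Dhrs9, a retinol dehydrogenase, were higher (log2 fold change 2.15 and 5.31, adjusted p = 0.0219 for both). Of 8 steroid and oxysterol genes, Srd5a3 was higher (log2 fold change 0.67, adjusted p = 0.0423), and none of 4 epoxide hydrolases passed edgeR in either fit. At an unadjusted p under 0.05 there were 0 of them with all mice and 1 without NCD replicate 1, and DESeq2 called 0 and 1.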

How the data were processed

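The deposited values are raw counts of reads on each gene, with no normalization, in a table of 6 columns that each name a sample (0 columns had no sample). The column of HFD replicate 3 is labelled WT_HFD_4. The submitters' processing notes name bcl2fastq 2.20.0, Trimmomatic, HISAT2 2.1.0, StringTie 1.3.4d, DESeq2 and the build mm10 (GRCm38). What each did, the annotation and any strand setting are not stated there or in the methods. Symbols came from RefSeq (19742 of 19790 genes, the other 48 held 0.629% of counts) and lengths from GENCODE vM21 exons (80 of 84 members).

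Genes with few reads were removed (filterByExpr at a minimum count of 10 and a minimum total of 15). Library sizes were corrected by TMM, and edgeR 4.0.16 in R 4.3.3 fitted glmQLFit and glmQLFTest. P-values were adjusted by Benjamini-Hochberg over 15241 genes, with 0.05 as the threshold. A standard error is the size of the log2 fold change over the root of F, and the biological coefficient of variation was 0.424. Depth was 49575113 to 66360046 counts per library. Intervals (95%) of count ratios and floors (3 counts per library) cover counting error only. Intervals (95%) of log2 fold changes come from the edgeR standard error, which takes in the spread between mice. No library duplicated another, since mice on one diet had a chi-square of 116 to 3597 per degree of freedom. The labels call them biological replicates and name no animals, so p-values measure the spread between these samples.

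Named members were those past the threshold with all mice or without NCD replicate 1, those with a mean of at least 1 FPKM, and Cyp4a10. Members outside this rule that are given with values (Cyp4f37, Cyp2c70, Cyp3a11, Cyp21a1, Cyp11a1, Cyp46a1 and members counted in a single library) were chosen after their values were seen. Members and gene lists were chosen with earlier results of these data known. The procedure was tested on simulated data. Alternatives were other scalings, no filter, DESeq2 1.42.0, each mouse left out, NCD replicate 3 alone and the replicate number as a block. Leaving out replicate 1 of both diets was added once values were known. Plots used matplotlib 3.10.9.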

Additional observations from a re-analysis of the deposited data

How the results depend on the processing

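Numbers of P450 genes past the threshold depended on the samples and tool more than on the scaling. With all mice 4 members passed (3 higher, 1 lower) of 1139 genes. Total counts without scaling gave 2 lower members, a median log2 fold change of 0.54 beside 0.45 for all genes (−0.08 under TMM), and 5 genes of the partner lists. It turned the sign of Cyp2j9 (0.26), Cyp20a1 (0.18), Cyp27a1 (0.34), Cyp4f13 (0.49) and Cyp4f17 (0.47), and of calls 60% of members and 78% of all genes were then higher, against 75% and 74.6% under TMM. Median-of-ratios scaling gave 66.7% of members. TMM without the secretory genes gave Cyp4f13 0.0024. With no filter, 2 of 68 members passed in edgeR (1 higher), and Cyp4a14 and Cyp2c23 no longer did (adjusted p = 0.0807 and 0.0648). The median of these 68 was 1.55, beside −0.055 for all genes, and 6 partner genes passed. The 68 take in 36 members that the filter removed, and 20 members of the family were counted only on HFD.

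DESeq2 called 17 members (10 higher, 7 lower) of 3853 genes, and 21 partner genes. Its median also covered 68 members and was 1.57, beside −0.060 for all genes. With NCD replicate 1 left out as well, DESeq2 called 18 members (11 and 7) of 5083 genes, and 31 partner genes. The median of 68 members was then 1.26, beside 0.026 for all genes. Cyp39a1 was 0.020, Cyp2d22 −0.056, Cyp4f13 0.0017 and Cyp4f17 0.076.

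Leaving out 1 mouse at a time gave 0 to 9 members past the threshold, 0 to 5 higher and 0 to 4 lower, with 2 to 3234 genes in all and 0 to 24 partner genes. The highest of each of these counts came without NCD replicate 1. The median ran from −0.078 (without HFD replicate 1) to 0.32 (without NCD replicate 2). The log2 fold change turned its sign for Cyp39a1 (−1.33 to 0.026), Cyp2d22 (−0.051 to 0.491), Cyp4f17 (−0.20 to 0.083), Cyp4f13 (−0.11 to 0.065), Cyp2j9 (−0.53 to 0.19) and Cyp27a1 (−0.56 to 0.079), none of them past the threshold. With NCD replicate 3 as the lone NCD mouse, assumed to vary like the HFD mice, 1 member passed (0 higher) of 529 genes, the median was 0.77 and 4 partner genes passed. Cyp39a1 was then 0.11, Cyp2d22 −0.17, Cyp4f17 0.050 and Cyp26b1 −0.042.

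Replicate numbers did not pair the mice (correlations of same-numbered mice −0.05, −0.02 and −0.02). With the replicate block, 1 member passed (Cyp2f2, 0 higher) of 12 genes, and 0 partner genes, with 13 members at an unadjusted p under 0.05. Without replicate 1 of both diets, 16 members (10 higher, 6 lower) of 3865 genes and 31 partner genes passed. The 16 take in members that reached that fit through 1 diet only. The median was 0.39 and Cyp2d22 was −0.26. Expressed members numbered 12 at 5 FPKM and 32 by the count filter. The causes were not tested. Members near 1 CPM rest on few counts, so their folds are imprecise.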
